A study of Mus musculus with 6 samples.

Results

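T cells, natural killer (NK) cells and their cytotoxic products were followed through 49 genes listed by name, in liver RNA from mice with established tumours of Hepa 1-6, a hepatoma cell line of the mouse. A row of the deposited table was found for 28 of the 49, and those 28 rows, of 12603 with values, are described here. Polyadenylated RNA from liver tissue was sequenced in 6 libraries. Of these, 3 are labelled wild type (WT) and 3 are labelled Akr1d1 knockout (KO), and both groups carried the Hepa 1-6 tumours. Strain, age, sex and the design of the knockout allele are not given in the labels, and nothing says that each library is a different animal, so a p-value here speaks of the spread among these samples alone. The deposited values read as ratios, the level in 1 library divided by the mean of that gene across 7 libraries, with 1 of those 7 not analysed here. That reading comes from the values, since no label states it. On that reading a value of 1 is the gene's average, and levels cannot be compared between genes.

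T cells recognise peptides on MHC molecules through a receptor whose CD3 and zeta chains pass the signal to the kinases LCK and ZAP70 and the adaptor LAT. NK cells instead read a balance of activating and inhibitory surface receptors, and the mouse liver is known for a large resident NK and innate lymphoid population. Both cell types kill by releasing perforin and granzymes from granules or by death ligands such as TRAIL, and checkpoint receptors restrain them.

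The targeted gene was looked at first. *Akr1d1* stood at 0.826, 0.697 and 0.881 under the WT label and at 1.22, 1.21 and 1.35 under the KO label. It was thus not lower in the libraries labelled KO (1.57-fold higher mean, limma adjusted p = 0.17), and all directions that follow are between libraries as labelled. Over all 12578 genes tested with limma on log2(value + 0.1), 2 were called at an adjusted p under 0.05, which is 0.0159%, *Tnni2* and *4930511A08Rik*, both with a value of 0 in every WT library and neither on the lymphocyte list. At an unadjusted p under 0.05 the share was 12.0% of all genes (6.5% higher and 5.53% lower under the KO label). All KO libraries exceeded all WT libraries in 8.86% of all genes and were below them in 10.1%. The deepest library had 1.24 times the relative depth of the shallowest.

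Of the 28 lymphocyte genes with a row, 0 passed the adjusted threshold, the smallest adjusted p being 0.211. At an unadjusted p under 0.05 there were 7, or 25%, of which 5 were higher and 2 lower in the libraries labelled KO, against 6.5% and 5.53% of all genes. These counts moved with single libraries, to 3 higher and 3 lower without WT replicate 2, and to 7 higher without WT replicate 3 (2 lower) or KO replicate 3 (3 lower). All KO libraries exceeded all WT libraries for 5 of the 28 (17.9%), *Cd3d*, *Zap70*, *Cd2*, *Klrk1* and *Tnfsf10*, and were below for 2 (7.14%), *Cd27* and *Lag3*. The log2 change was positive for 18 of 28 genes, with a median of 0.21, against 49.0% of all genes tested and a median of -0.004. In bulk tissue, fewer cells of a type and less RNA per cell cannot be told apart. No member held a 0 in any library. The CD3 chains that define T cells and *Klrb1c*, which marks NK cells, had values above 0 in all 6 libraries. The 21 listed genes without a row, not analysed here, were *Cd8a*, *Cd5*, *Cd6*, *Cd28*, *Txk*, the transcription factors *Lef1*, *Gata3*, *Eomes*, *Tbx21* and *Runx3*, the NK receptors *Ncr1*, *Klre1*, *Klra4* and *Klra7*, the effectors *Prf1*, *Fasl* and *Ifng*, and the checkpoints *Cd96*, *Tigit*, *Pdcd1* and *Ctla4*.

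**Figure D1:**
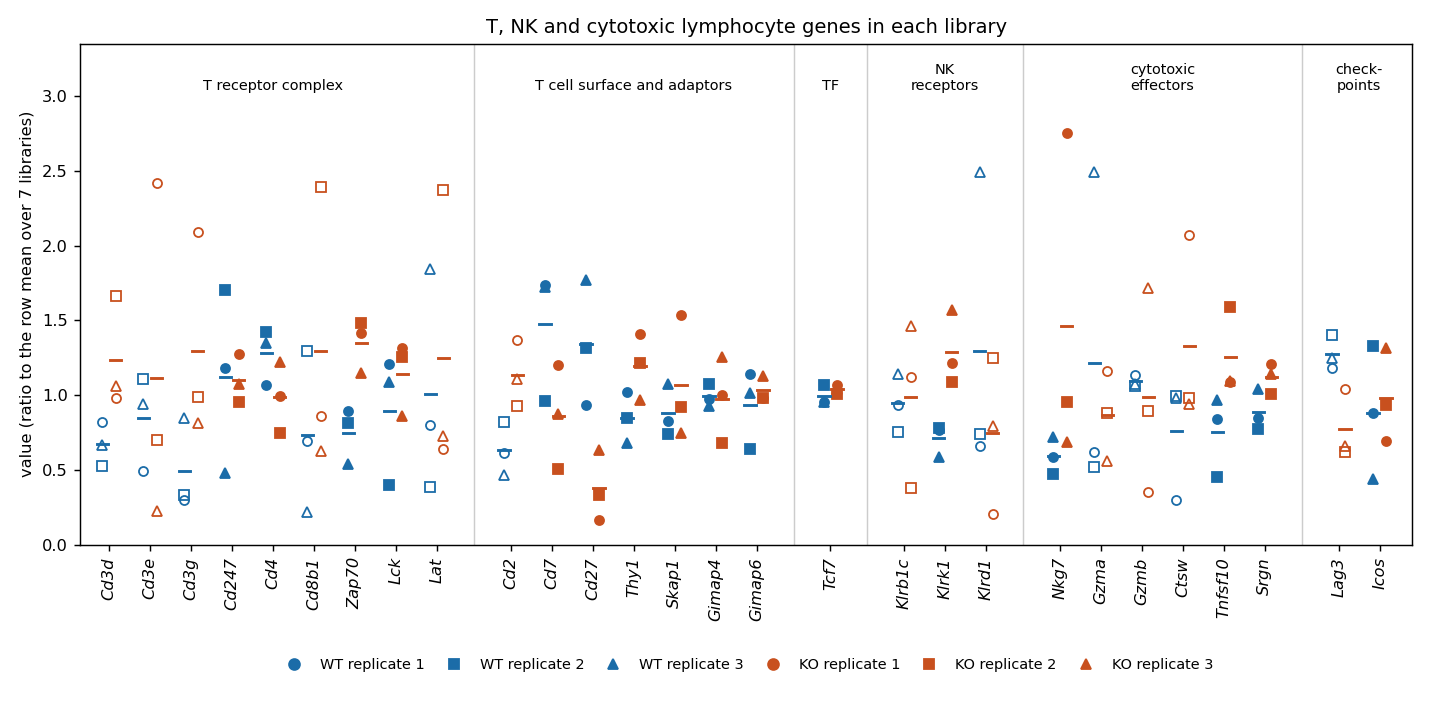
Value of each of the 28 genes in each library, as the ratio to the gene's mean over 7 libraries (vertical axis), grouped by role, with TF for transcription factor. Blue marks libraries labelled WT and orange those labelled KO, the symbol gives the replicate, short bars are group means, and open symbols mark the 12 genes whose values match whole reads. For *Cd27* the KO points lie between 0.164 and 0.634, all under the WT points, while for *Klrk1* they lie between 1.09 and 1.57, all over them.

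Many of these genes rested on few reads. A gene measured by few reads takes values that are whole multiples of what 1 read is worth in that library, and these steps were visible in the deposited ratios. Among 2675 rows whose highest library was at least 2 times the lowest, 739 matched at most 40 whole reads in every library within 0.05 of a read, and 39 did so when all libraries were given the same depth. Of the 28 lymphocyte genes 23 spread that widely, and 12 of these matched whole reads, with no deviation above 0.0409 of a read. The reads stated in the following are the smallest whole numbers that give the values, so true reads may be a multiple of them. They ran from 1 to 22 a library, and 11 of the 12 genes had a library with 5 reads or fewer.

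**Figure D2:**
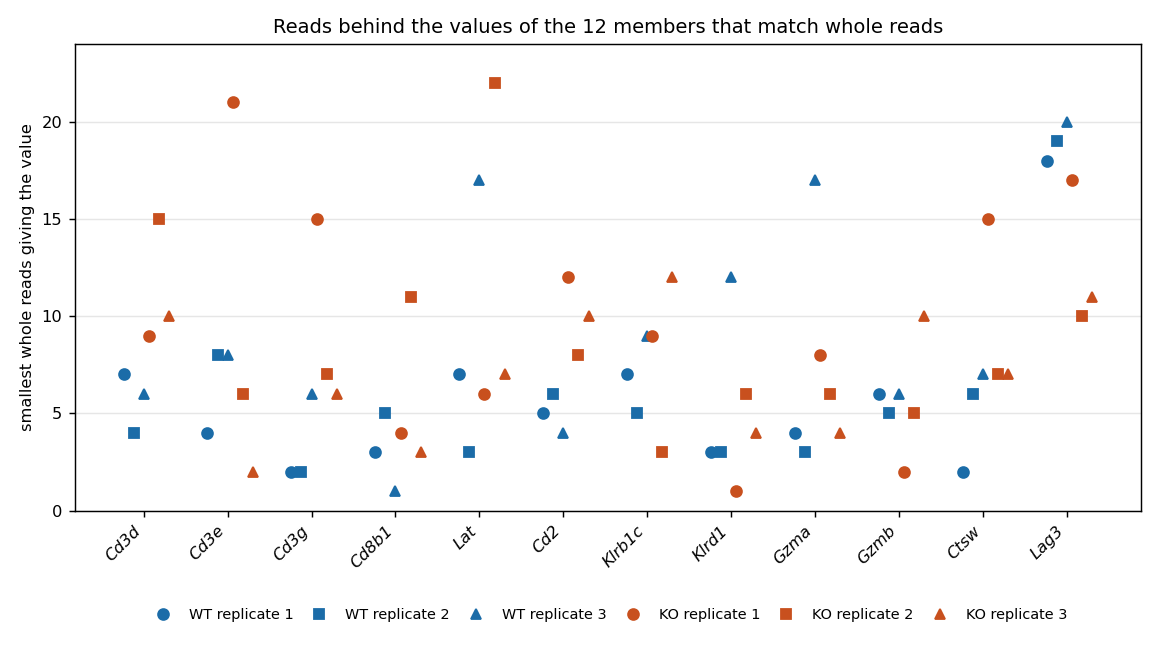
Smallest whole reads that give the deposited values (vertical axis) for the 12 genes that match whole reads, in libraries labelled WT (blue) and KO (orange), with the symbol giving the replicate. *Cd8b1* goes from 1 read in WT replicate 3 to 11 in KO replicate 2, and *Gzmb* totals 17 reads in each group.

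In the T receptor complex 7 of 9 genes had a positive log2 change (median 0.42) and 0 passed the adjusted threshold. *Cd3d*, the delta chain (chromosome 9, 44981786 to 44987339, plus strand, mm10), had values of 0.819, 0.526 and 0.666 under the WT label and 0.983, 1.66 and 1.06 under the KO label. These match 7, 4 and 6 reads against 9, 15 and 10 reads, and the groups did not overlap. The log2 change was 0.78 (SE 0.23, limma adjusted p = 0.30). *Zap70*, the kinase that docks on phosphorylated CD3 and zeta chains (chromosome 1, 36761798 to 36782818, plus strand), had values of 0.893, 0.810 and 0.541 against 1.42, 1.49 and 1.15. All 3 libraries labelled KO were higher, with means of 0.748 ± 0.184 and 1.35 ± 0.177 (SD, n = 3 each) and a log2 change of 0.79 (SE 0.19, limma adjusted p = 0.24). For *Cd3d* and *Zap70* the exact permutation test, two-sided, reached 0.1, as for all 7 members whose groups did not overlap. That is its floor for 3 against 3 libraries, reached whenever groups do not overlap, so it adds nothing to the non-overlap.

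The other CD3 chains did not share that order. *Cd3g*, the gamma chain, is the neighbour of *Cd3d* on chromosome 9 (44969572 to 44980431, minus strand). Its values of 0.298, 0.335 and 0.849 under the WT label and 2.09, 0.989 and 0.812 under the KO label match 2, 2 and 6 reads and 15, 7 and 6 reads. WT replicate 3 and KO replicate 3 stood at the same 6 reads, so the groups overlapped despite a 2.63-fold higher mean (log2 change 1.24, 95% interval 0.10 to 2.38, limma adjusted p = 0.379). *Cd3e*, the epsilon chain, had 0.495, 1.11 and 0.938 against 2.42, 0.702 and 0.225, or 4, 8 and 8 reads against 21, 6 and 2. The highest and the lowest library were both labelled KO, and the mean was 1.32-fold higher while the log2 change was -0.06 (95% interval -1.92 to 1.79), with a positive sign once WT replicate 2, WT replicate 3 or KO replicate 3 was left out (0.15, 0.03 and 0.65). *Cd247*, the zeta chain, had 1.18, 1.70 and 0.479 against 1.27, 0.956 and 1.07, with WT replicates 2 and 3 at the ends of the range (log2 change 0.12, and -0.35 without WT replicate 3). The gene overlaps *Pou2f1*, among others, on the other strand, and whether reads were counted by strand is not stated. Across the 6 libraries Pearson's r on the log2 scale was 0.51 between *Cd3d* and *Cd3g*, 0.46 between *Cd3e* and *Cd3g* and -0.22 between *Cd3d* and *Cd3e*. These are descriptions over 6 points that share their libraries.

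The coreceptors lay on opposite sides. *Cd4*, which binds MHC class II, had 1.07, 1.42 and 1.35 under the WT label and 0.993, 0.747 and 1.22 under the KO label, an overlap through KO replicate 3 (log2 change -0.36, 95% interval -0.83 to 0.12, and -0.19 without KO replicate 2). *Cd8b1*, the beta chain of the class I coreceptor, had 0.691, 1.29 and 0.218 against 0.859, 2.40 and 0.627, which match 3, 5 and 1 reads against 4, 11 and 3. Taken as the true reads, group totals were 9 (exact Poisson 95% interval 4.12 to 17.1) and 18 (10.7 to 28.4), intervals that overlap and cover counting error only. The log2 change of 0.77 was 0.20 without WT replicate 3 and 0.24 without KO replicate 2. The kinase *Lck* had 1.21, 0.397 and 1.09 against 1.32, 1.25 and 0.857, where WT replicate 2 alone stood low. The adaptor *Lat* had 0.801, 0.385 and 1.85 against 0.641, 2.37 and 0.727, or 7, 3 and 17 reads against 6, 22 and 7. A single library of each group was high for *Lat*, WT replicate 3 and KO replicate 2, and its log2 change of 0.28 was -0.20 without WT replicate 2 and -0.28 without KO replicate 2. That of *Lck* was 0.42, and -0.02 without WT replicate 2.

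Among T cell surface receptors and adaptors 4 of 7 genes had a positive and 3 a negative log2 change (median 0.17). *Cd27*, a costimulatory receptor of the TNF receptor family (chromosome 6, 125232622 to 125237010, minus strand), had 0.935, 1.32 and 1.77 under the WT label and 0.164, 0.333 and 0.634 under the KO label. Every KO library was lower, with means of 1.34 ± 0.417 and 0.377 ± 0.238 (SD, n = 3 each), a ratio of 0.282 and a log2 change of -1.68 (SE 0.41, limma adjusted p = 0.24). The gene overlaps *Vamp1* on the other strand, and the sources used here do not say whether reads were counted by strand. *Cd2*, an adhesion receptor that binds CD48 in the mouse, had 0.611, 0.823 and 0.464 against 1.37, 0.926 and 1.11, or 5, 6 and 4 reads against 12, 8 and 10. All 3 libraries labelled KO were higher (1.79-fold, log2 change 0.77, SE 0.22, limma adjusted p = 0.286). *Cd7*, an immunoglobulin-family receptor, had a ratio of 0.583 with overlap (1.74, 0.960 and 1.72 against 1.20, 0.506 and 0.873). Its log2 change of -0.74 was -0.44 without KO replicate 2. *Thy1*, which mouse T cells and some fibroblasts carry, had a 1.41-fold higher mean with overlap (1.02, 0.850 and 0.680 against 1.41, 1.21 and 0.965). The integrin adaptor *Skap1* and the GTPase genes *Gimap4* and *Gimap6* had log2 changes of 0.21, -0.05 and 0.17, each with an interval spanning 0.

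Of the 6 lineage transcription factors only *Tcf7*, which encodes TCF-1, had a row. It was the steadiest of the 28 genes, at 0.955, 1.07 and 0.955 under the WT label and 1.07, 1.00 and 1.04 under the KO label, with a highest value 1.12 times the lowest. The log2 change was 0.06 with a 95% interval of -0.14 to 0.26.

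The 3 NK receptors with a row had a median log2 change of -0.09. *Klrk1*, which encodes the activating receptor NKG2D (chromosome 6, 129610323 to 129623864, minus strand), had the smallest p of the 28 genes. Its values were 0.769, 0.778 and 0.583 under the WT label and 1.21, 1.09 and 1.57 under the KO label, with every KO library higher. The means were 0.710 ± 0.110 and 1.29 ± 0.249 (SD, n = 3 each), with a log2 change of 0.78 (SE 0.17, limma adjusted p = 0.211). *Klrd1* lies close to it (129591782 to 129598775, plus strand) and encodes CD94, a partner of NKG2 receptors other than NKG2D. It had 0.658, 0.737 and 2.49 against 0.205, 1.25 and 0.794, or 3, 3 and 12 reads against 1, 6 and 4. WT replicate 3 alone was high, and the log2 change of -0.72 had a 95% interval of -2.47 to 1.02. It was -0.15 without WT replicate 3, -0.11 without KO replicate 1 and -1.18 without KO replicate 2. *Klrb1c*, the NK1.1 antigen, had 0.936, 0.754 and 1.14 against 1.12, 0.379 and 1.46, or 7, 5 and 9 reads against 9, 3 and 12, so the libraries labelled KO held both ends of the range (log2 change -0.09, 0.044 without WT replicate 3 and 0.42 without KO replicate 2).

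Among the cytotoxic effectors 4 of 6 genes had a positive log2 change (median 0.51, and 0.29 without WT replicate 1, 0.32 without WT replicate 2 and 0.33 without KO replicate 1), and the granzymes had the negative ones. *Gzmb*, the granzyme that cleaves caspases, had 1.14, 1.06 and 1.08 under the WT label and 0.353, 0.896 and 1.72 under the KO label. The matching reads were 6, 5 and 6 against 2, 5 and 10, with the libraries labelled KO spread around those labelled WT. The log2 change of -0.35 was 0.18 without KO replicate 1 and -0.83 without KO replicate 3. *Gzma*, a tryptase-like granzyme, had 0.619, 0.521 and 2.50 against 1.16, 0.880 and 0.561, or 4, 3 and 17 reads against 8, 6 and 4. Its direction rested on single libraries, since the log2 change was -0.17 with all, 0.48 without WT replicate 3 and 0.08 without KO replicate 3. *Nkg7*, a granule membrane protein of cytotoxic cells, had 0.588, 0.471 and 0.717 against 2.76, 0.956 and 0.684. KO replicate 1 stood above all others, and the log2 change of 0.96 was 0.41 without it. *Ctsw*, the protease cathepsin W, had 0.296, 0.996 and 0.982 against 2.07, 0.980 and 0.940, or 2, 6 and 7 reads against 15, 7 and 7, so that replicates 2 and 3 of the groups were alike and replicate 1 set the difference. The log2 change of *Ctsw* was 0.79, 0.31 without WT replicate 1 and 0.45 without KO replicate 1, and it overlaps *Fibp* on the other strand.

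The remaining effectors are not confined to lymphocytes. *Tnfsf10*, which encodes the death ligand TRAIL (chromosome 3, 27317028 to 27342427, plus strand), had 0.837, 0.451 and 0.971 under the WT label and 1.09, 1.59 and 1.09 under the KO label. All 3 libraries labelled KO were higher (1.67-fold, log2 change 0.70, SE 0.29, limma adjusted p = 0.416), and the log2 change was 0.42 without WT replicate 2. Its death receptor *Tnfrsf10b* had a 1.30-fold higher mean with overlap. *Srgn*, the granule proteoglycan that myeloid cells also make, had 0.848, 0.775 and 1.04 against 1.21, 1.01 and 1.14, a 1.26-fold higher mean with KO replicate 2 under WT replicate 3.

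Of the checkpoint genes *Lag3* and *Icos* had rows. *Lag3*, an inhibitory receptor that binds MHC class II and FGL1 (chromosome 6, 124904361 to 124911705, minus strand), had 1.18, 1.40 and 1.25 under the WT label and 1.04, 0.621 and 0.657 under the KO label. These match 18, 19 and 20 reads against 17, 10 and 11, the best covered of the 12 genes by its lowest library. Every KO library was lower, with means of 1.28 ± 0.113 and 0.773 ± 0.232 (SD, n = 3 each) and a log2 change of -0.69 (SE 0.19, limma adjusted p = 0.285). *Cd4* and *Lag3* lie close together on chromosome 6 and both had lower means in the libraries labelled KO. Of the other members on that chromosome *Cd27*, *Klrd1* and *Gimap4* also had lower means, and *Cd8b1*, *Gimap6*, *Klrb1c* and *Klrk1* higher ones. A role of position was not tested. The liver-made ligand *Fgl1* had a ratio of 0.950 with overlap. *Icos*, a costimulatory receptor, had 0.878, 1.33 and 0.436 against 0.691, 0.931 and 1.32, with both ends of the range labelled WT (log2 change 0.21, -0.17 without WT replicate 3 and -0.0079 without KO replicate 3).

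**Figure D3:**
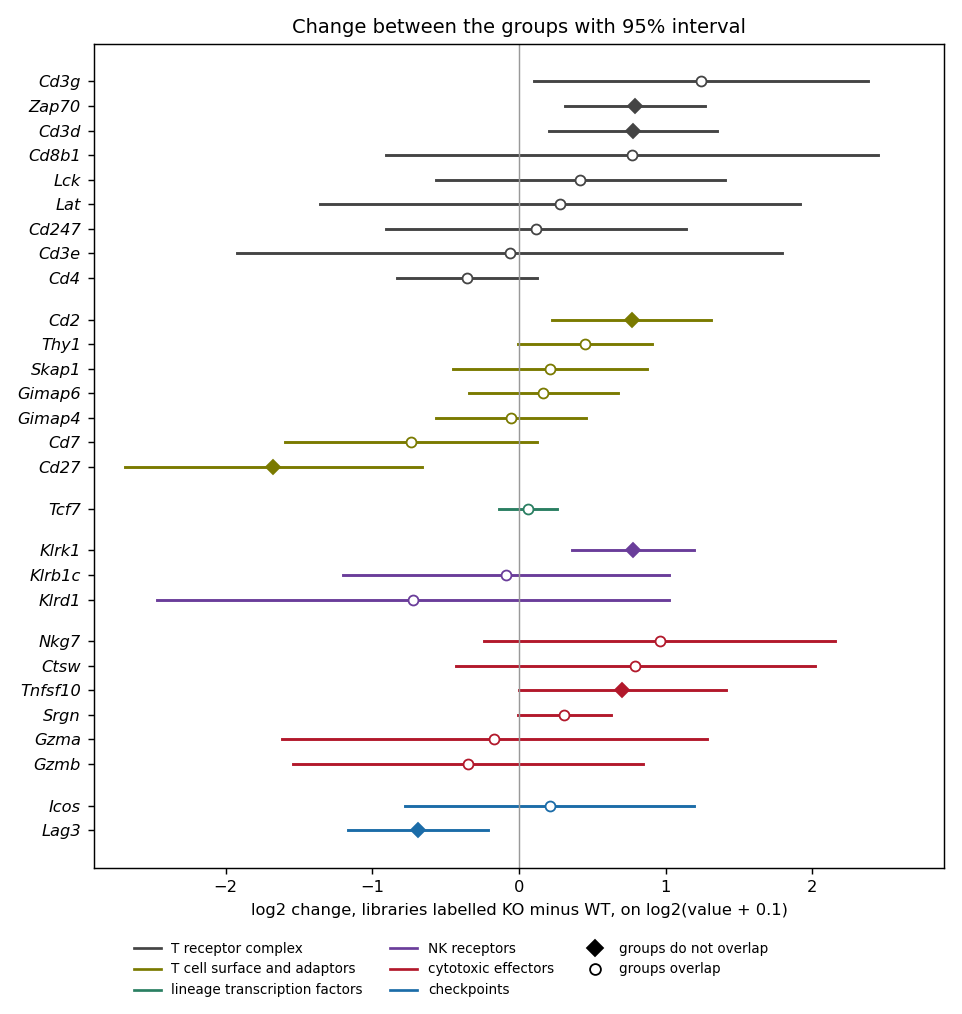
Log2 change between libraries labelled KO and WT on the log2(value + 0.1) scale (horizontal axis) with its 95% interval from the limma fit, for the 28 genes ordered within their role. Filled diamonds mark the 7 genes whose groups do not overlap, 5 on the higher and 2 on the lower side, and intervals are widest for genes such as *Cd3e* (-1.92 to 1.79).

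Promoter windows, from 250 bases before to 50 after the start of transcription, were read from RefSeq (GRCm38.p6) and were found for 18 of the 28 genes, in 23 windows. Shown are *Cd3d* and *Klrk1*, whose groups did not overlap on the higher side, *Cd27* on the lower side, and *Gzmb*, whose reads were equal in total. Capitals mark matches on either strand to TGTGGT, the core bound by RUNX factors of T and NK cells, or to AGGAAG, an ETS core.
Cd3d, chr9:44981536-44981835, plus strand: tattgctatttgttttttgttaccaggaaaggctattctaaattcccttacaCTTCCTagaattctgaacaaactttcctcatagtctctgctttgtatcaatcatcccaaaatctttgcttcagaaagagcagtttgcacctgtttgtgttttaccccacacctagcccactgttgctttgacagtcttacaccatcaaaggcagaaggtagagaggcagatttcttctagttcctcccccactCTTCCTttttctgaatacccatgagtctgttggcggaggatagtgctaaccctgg
Klrk1, chr6:129623815-129624114, minus strand: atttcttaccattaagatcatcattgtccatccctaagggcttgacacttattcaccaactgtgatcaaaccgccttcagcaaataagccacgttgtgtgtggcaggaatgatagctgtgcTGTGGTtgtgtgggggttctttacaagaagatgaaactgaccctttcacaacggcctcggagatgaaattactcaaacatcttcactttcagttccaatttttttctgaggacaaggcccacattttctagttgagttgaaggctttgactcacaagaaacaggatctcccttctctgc
Gzmb, chr14:56262285-56262584, minus strand: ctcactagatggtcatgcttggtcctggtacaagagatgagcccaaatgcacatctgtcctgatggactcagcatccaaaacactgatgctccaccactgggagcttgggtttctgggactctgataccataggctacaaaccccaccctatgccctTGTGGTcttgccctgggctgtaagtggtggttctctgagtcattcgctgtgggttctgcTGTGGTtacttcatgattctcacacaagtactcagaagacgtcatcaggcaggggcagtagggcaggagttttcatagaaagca
Cd27, chr6:125236978-125237277, minus strand: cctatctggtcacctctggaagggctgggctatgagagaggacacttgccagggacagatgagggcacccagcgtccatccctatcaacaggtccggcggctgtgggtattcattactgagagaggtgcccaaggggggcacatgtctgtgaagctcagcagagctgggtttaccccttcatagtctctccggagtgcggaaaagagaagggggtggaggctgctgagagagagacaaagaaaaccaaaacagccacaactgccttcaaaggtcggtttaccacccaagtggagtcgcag
On either strand the *Cd3d* window held AGGAAG and no TGTGGT, *Klrk1* a TGTGGT and *Gzmb* a pair of them, and *Cd27* held neither string. Over the lymphocyte genes 10 of 23 windows held TGTGGT, against 16.8% of 32851 windows of all genes, and 12 of 23 held AGGAAG, against 35.4%. For the T-box core GGTGTGA it was 1 of 23 (*Nkg7*) against 3.98%, and for TATAAA 3 of 23 against 13.6%. A match is a string of letters in this window. Genes with and without TGTGGT, and with and without AGGAAG, stood on both sides of the comparison. The genes with TATAAA (*Gimap6*, *Tcf7* and *Srgn*) and with GGTGTGA all had a positive log2 change.

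The lymphocyte genes varied more between libraries than most genes. The median of the highest over the lowest library was 3.37 for the 28 genes against 1.42 over all genes above 0 in every library, and 23 of 28 reached at least 2, as 20% of all genes did. The median coefficient of variation among the libraries labelled WT was 0.283 against 0.116, and among those labelled KO 0.311 against 0.106. For the 12 genes with whole reads, the spread within groups, as a multiple of what counting alone gives, had a median of 1.90, against 1.97 over all 739 such rows. It was 0.396 for *Cd2*, 0.636 for *Cd3d*, 0.645 for *Lag3*, 5.72 for *Cd3e* and 5.95 for *Lat*. These multiples are computed on the smallest reads and grow with the true reads, so they are lower bounds. Among the 28 genes KO replicate 1 held the highest value for 9 and WT replicate 2 the lowest for 9. Over the 378 pairs of genes Pearson's r across the 6 libraries had a median of 0.05 and was positive for 200.

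Other genes of the same cells, taken from a list of 58 of which 19 had rows, had a median log2 change of 0.29. Of the 19, 13 had a positive one, against 49.0% of all genes, 0 passed the adjusted threshold, and 4 had all KO libraries over all WT libraries, with 0 the other way, against 8.86% and 10.1% of all genes. *Cxcr6*, a homing receptor of liver-resident lymphocytes, had 0.798, 0.512 and 0.757 under the WT label and 1.17, 1.29 and 1.45 under the KO label, or 7, 4 and 7 reads against 11, 12 and 14 (1.89-fold, limma adjusted p = 0.197). *Prkcq*, the protein kinase C of T receptor signalling, had a 2.37-fold higher mean (limma adjusted p = 0.198), *Ltb* 1.40-fold and the chemokine *Xcl1* 2.05-fold, the last with overlap. Of 34 ligands and targets of the receptors and effectors 23 had rows, and 0 passed. The log2 change was positive for 18 of the 23 (median 0.21), against 49.0% of all genes. All KO libraries exceeded all WT libraries for 3 and were below for 0, against 8.86% and 10.1% of all genes. *Cd274*, which encodes the checkpoint ligand PD-L1, had 0.687, 0.772 and 0.760 against 1.62, 1.32 and 1.31 (1.92-fold, limma adjusted p = 0.098). The CD2 ligand *Cd48* had a 1.86-fold and the interferon-gamma receptor chain *Ifngr2* a 1.48-fold higher mean, both without overlap, and *Cxcl9*, a chemokine that draws T cells, 1.97-fold with overlap.

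Pan-leukocyte genes, of which 11 of 12 had rows, had a mean ratio of 0.861 to 0.959 under the WT label and 1.02 to 1.22 under the KO label. The ranges were 0.835 to 0.983 and 1.08 to 1.19 for monocyte and macrophage genes (11 of 12), 0.795 to 0.993 and 1.03 to 1.23 for Kupffer cell genes (6 of 6), and 0.701 to 0.997 and 1.07 to 1.27 for B and plasma cell genes (7 of 12). Neutrophil genes (5 of 7) had 0.786 to 0.976 and 1.08 to 1.40. For the 28 lymphocyte genes the ranges were 0.871 to 1.06 and 0.980 to 1.20, and these overlapped. Hepatocyte genes (9 of 10) had 0.997 to 1.05 and 0.929 to 0.994, while the ranges of dendritic, endothelial and stellate cell genes overlapped between groups. Leaving out each gene in turn was an alternative chosen after seeing the data. The groups' ranges then stayed apart throughout for the pan-leukocyte and the monocyte and macrophage genes. Without *Ptprc*, however, the pan-leukocyte ranges nearly met, with a highest WT library of 0.9752 and a lowest KO library of 0.9770. In each of these lists 4 of 11 genes had all KO libraries over all WT libraries, and for 7 the groups overlapped. The groups' ranges came to overlap for 1 of 6 omissions among Kupffer cell genes (*Timd4*) and 2 of 5 among neutrophil genes (*S100a9* or *Elane*). The same held for 5 of 9 omissions among hepatocyte genes and 1 of 7 among B and plasma cell genes. That last gene was *Jchain*, without which the B and plasma cell ranges were 0.758 to 1.13 and 0.995 to 1.12. The erythroid and the oncofetal list had 1 row each. No marker with a row was at 0 in any library. The part of a different leukocyte or hepatocyte content in the lymphocyte values was not tested.

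**Figure D4:**
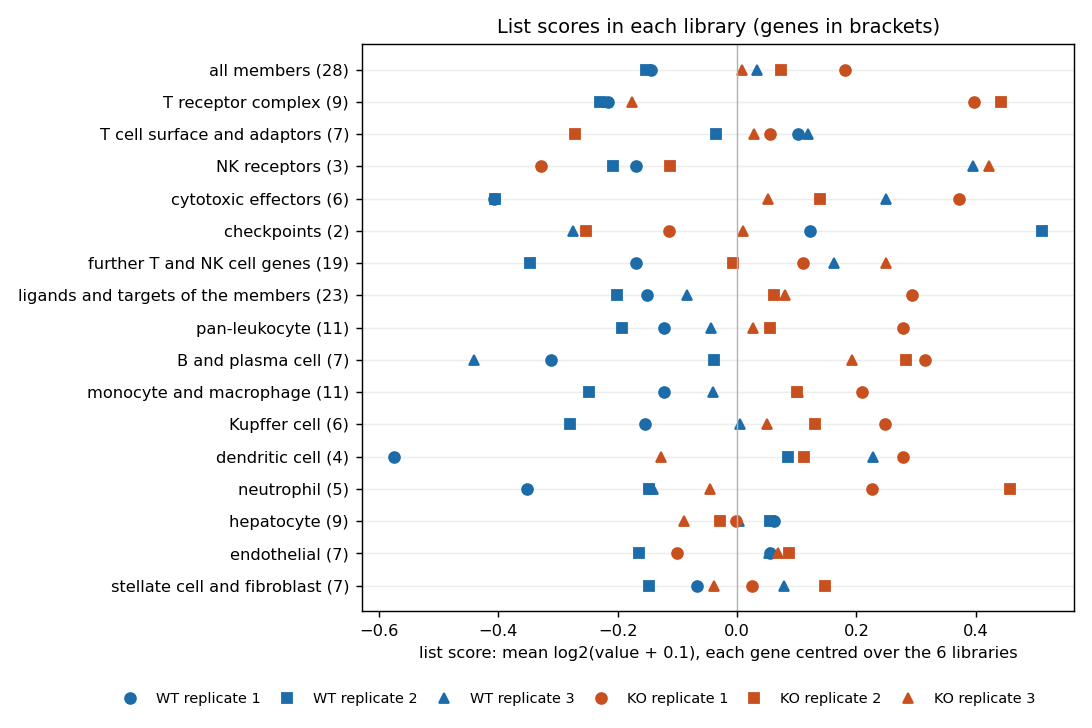
Score of each gene list in each library, the mean of log2(value + 0.1) with each gene centred over the 6 libraries (horizontal axis), for libraries labelled WT (blue) and KO (orange), with the symbol giving the replicate and the number of genes in brackets. The T receptor complex stands at 0.40 and 0.44 in KO replicates 1 and 2 but at -0.18 in KO replicate 3, near the libraries labelled WT, while the pan-leukocyte scores of the groups do not overlap.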

How the data were processed

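The deposited values are a linear ratio per gene and library. No value exceeds 7 and 99 rows sum to 7 over the 6 libraries, so each reads as a gene's expression divided by its mean over 7 libraries; no label states this step. STAR 2.10, R 4.0.5 and mm10 are named, without a role, per the submitters' processing notes. The sources used here do not give the counter, annotation or library scaling. Of 12792 rows 189 held no values.

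Values were tested as log2(value + 0.1) with limma 3.58.1 in R 4.3.3, with no mean trend, over the 12578 rows that exceed 0 in 3 libraries or more. P-values were adjusted by Benjamini and Hochberg's method over all these rows, with a threshold of 0.05. Changes on this scale understate those of low values. Fit and read matching were also run on simulated data, with outcomes not given here, so no accuracy is claimed from those runs. Total reads are unknown. Relative depths, from 179 rows that match whole reads, were 0.972, 0.865 and 1.02 under the WT label and 1.04, 1.03 and 1.07 under the KO label, in replicate order.

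The members and lists were chosen with earlier results of these data known. Values in every library are given for the T receptor complex, for the 4 genes with the smallest p of each role, and for defining genes. The other members are given more briefly. Of the 2 further lists the 4 genes with the smallest p are named, plus *Tnfrsf10b* and *Fgl1* as partners, chosen after their values were seen. Alternatives were other pseudocounts and filters, median centring, a mean trend, a replicate block and leaving out each library. Gene positions are from GENCODE M21 (mm10).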

Additional observations from a re-analysis of the deposited data

How the results depend on the processing

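No lymphocyte gene passed the threshold under any alternative, the smallest adjusted p being 0.186. Of 364 pairs of gene and alternative, 346 kept their direction and 18, in 11 genes, reversed. The count over all genes was 2, and it was 1 with a pseudocount of 0.5 and 1 with the replicate block. It was 0 with a mean trend and 0 without zeros and pseudocount. The latter setting drops both called genes before testing, as each was at 0 in every WT library. At an unadjusted p under 0.05 limma gave 1514 genes, 1495 without zeros and pseudocount and 1573 with a mean trend. Without single libraries it ran from 0 to 4 (0 without any 1 of the libraries labelled KO, where a gene at 0 in all libraries labelled WT no longer meets the filter, 1 without WT replicate 2 and 4 without WT replicate 3), with 1132 to 1602 at an unadjusted p under 0.05. Deviations of same-numbered samples correlated at -0.02, -0.002 and 0.09, and those of other-numbered samples at -0.08 to 0.08. With 3 libraries a group, these values cannot decide whether replicate numbers pair the samples.

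With a pseudocount of 0.5 *Cd3e* reversed to 0.048. Without single libraries the log2 change ranged from -0.83 to 0.65 for *Cd3e*, -0.35 to 0.47 for *Cd247*, -0.024 to 0.67 for *Lck*, -0.28 to 0.80 for *Lat*, -0.057 to 0.42 for *Skap1*, -0.24 to 0.16 for *Gimap4*, -0.059 to 0.32 for *Gimap6*, -0.43 to 0.42 for *Klrb1c*, -0.55 to 0.48 for *Gzma*, -0.83 to 0.18 for *Gzmb* and -0.17 to 0.54 for *Icos*. Medians ranged from 0.13 to 0.36 for all members (lowest without WT replicate 2, highest without KO replicate 3), 0.24 to 0.67 for the T receptor complex (lowest without KO replicate 2, highest without WT replicate 1), 0.29 to 0.69 for effectors, -0.44 to -0.04 for checkpoints (lowest without WT replicate 3, highest without WT replicate 2), -0.057 to 0.24 for surface receptors and adaptors (lowest without KO replicate 1) and -0.43 to 0.42 for NK receptors (highest without KO replicate 2). Without each library in turn 16 to 19 of the 28 genes were positive, for 5 to 9 all KO libraries exceeded all WT libraries, against 12.6% to 15.8% of all genes, and for 2 to 4 all were below (4 without KO replicate 3), against 14.2% to 17.6%.

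Leaving out the 12 genes with whole reads was chosen after seeing the data. It gave medians of 0.27 for the T receptor complex (0.42 with all), 0.06 for surface receptors and adaptors (0.17), 0.70 for effectors (0.51), 0.78 for NK receptors (-0.09) and 0.21 for checkpoints (-0.24), the last 2 on 1 gene each, and 0.21 for all members (0.21).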

Other observations

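Of the 19 further T and NK cell genes with rows, 2 held zeros. Both count in that list's median, with log2 changes of -0.78 for *Slamf6* and -0.98 for *Il2ra*. *Slamf6*, an adhesion receptor of lymphocytes, was listed at 0 in WT replicate 2 and KO replicate 2 and at 3.62, 1.24, 0.660 and 1.19 in WT replicates 1 and 3 and KO replicates 1 and 3. *Il2ra*, the alpha chain of the interleukin-2 receptor, was listed at 0 in KO replicate 1 and at 0.731 to 1.78 in the others. Among plasma cell markers *Jchain*, on which the B and plasma cell ranges rest and which joins IgA and IgM chains, stood at 0.191, 0.214 and 0.362 under the WT label and at 2.13, 2.53 and 0.955 under the KO label, or 2, 2 and 4 reads against 24, 28 and 11 (7.32-fold higher mean, limma adjusted p = 0.143). These 3 genes were named after their values were seen.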
